A study of Homo sapiens with 5 samples.

Results

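The mRNAs of 10 genes that form the core of the NF-κB pathway were followed in TF-1 cells with and without a knockout of *MTSS1*. They encode the 5 subunits of the transcription factor (*NFKB1*, *NFKB2*, *REL*, *RELA*, *RELB*), 3 proteins of the IκB family that hold it in the cytoplasm (*NFKBIA*, *NFKBIB*, *NFKBIE*), the deubiquitinase and feedback inhibitor A20 (*TNFAIP3*), and the kinase IKKβ (*IKBKB*). The genes were chosen by name, with earlier results of these data known. All 10 were found among the 27328 genes of the count table. TF-1 is an established line of human AML cells that was cultured with GM-CSF. All cells carried a lentiviral vector with *Cas9* and GFP and an sgRNA. In the 2 control pools, sgCtrl_1 and sgCtrl_2, the sgRNA was directed against *Renilla luciferase*, which the cells lack. In the 3 knockout pools, sgMTSS1_1, sgMTSS1_2, and sgMTSS1_3, each pool had been made with a different sgRNA against *MTSS1*. Every pool combined 4 single-cell clones and gave 1 library, so that the spread within a group includes that between clones and, in the knockout, that between sgRNAs. According to the supplementary methods, 1 further control pool and 1 further knockout pool had been set aside as outliers and are not analysed here. No treatment is given for these libraries beyond this culture, and the levels given here are those of growing cells. GM-CSF can itself activate NF-κB.

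NF-κB is a family of dimeric transcription factors known for inducing genes of inflammation and survival. In resting cells the dimers are retained in the cytoplasm by IκB proteins. On stimulation, IKKβ and its partners phosphorylate IκB, which is then ubiquitinated and degraded by the proteasome, and the dimers enter the nucleus. Several genes of the pathway, including those of IκBα and A20, are themselves induced by NF-κB and close a negative feedback loop. The precursor proteins encoded by *NFKB1* and *NFKB2* are processed into DNA-binding subunits without an activation domain, whereas RELA, REL, and RELB carry such a domain. In AML, constitutive NF-κB activity has been described in leukemic stem and progenitor cells.

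The promoters of these genes are shown because several genes of the pathway are induced by NF-κB, as described above. Whether NF-κB acts on any of them in these cells was not tested. From RefSeq (GRCh38.p14), windows were available for 7 of the 10 genes, some with several transcription starts, and the 250 bases before each start were searched on both strands for the κB consensus, a degenerate motif of 10 bases whose matches may overlap. No window was available for *RELB*, *NFKBIE*, and *IKBKB*. At least 1 match was found for 6 of the 7 genes, the exception being *RELA*, and in 7 of their 12 windows. Among all 27305 genes with such a window, 11.8% had a match, and among all 35116 windows 9.96%. A match to these letters is not evidence of binding. Of the 4 stretches matched in *NFKB2*, 2 are shown. Each line gives the matched bases in capitals with their surroundings, read in the direction of the gene.

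NFKBIA (chr14:35404811-35404840): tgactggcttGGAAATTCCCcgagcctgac
NFKBIB (chr19:38899932-38899960): ggcgtggtgGGGAATTTCCCgcagggcgg
TNFAIP3 (chr6:137867188-137867217): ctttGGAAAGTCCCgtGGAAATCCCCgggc
NFKB1 (chr4:102501300-102501329): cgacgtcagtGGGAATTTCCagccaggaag
NFKB2 (chr10:102394462-102394490): aaacgtcatGGGAATTCCCCcctccgggg
NFKB2 (chr10:102395674-102395703): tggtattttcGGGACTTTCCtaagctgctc
REL (chr2:60881518-60881546): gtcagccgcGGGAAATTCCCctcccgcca

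*NFKBIA*, whose mRNA differed most between the groups, is transcribed from the minus strand. The 250 bases before its start (chr14:35404750-35404999) contain 1 match, which lies 81 to 72 bases upstream and is again in capitals.

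NFKBIA promoter: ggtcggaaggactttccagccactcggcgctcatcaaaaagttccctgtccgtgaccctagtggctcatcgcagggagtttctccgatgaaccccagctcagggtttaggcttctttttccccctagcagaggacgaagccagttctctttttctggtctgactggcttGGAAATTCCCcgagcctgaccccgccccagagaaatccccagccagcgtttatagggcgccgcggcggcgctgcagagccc

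Libraries were prepared with a 3′ mRNA kit, in which each transcript is read once near its end, so that no correction for length was made. Levels are given as CPM, that is, raw counts scaled to a common library total with TMM factors, and can be set side by side between genes only as far as their 3′ ends were captured equally well. Library totals were 2849979 and 3408827 counts in the control and between 5442639 and 8854899 counts in the knockout pools, so that every knockout library was deeper. The smallest level that 3 counts can show was between 0.389 and 0.938 CPM. Mitochondrially encoded genes took 8.63% to 13.9% of the counts in control and 6.71% to 7.44% in knockout pools. Ribosomal protein genes took 7.55% and 9.30% of the counts in control and 17.7%, 11.9%, and 13.9% in knockout pools. The part of depth and of these shares in the results below was not tested beyond the thinning of counts given with *NFKBIA*. All 12 progenitor and receptor genes taken as markers of TF-1, among them *CD34*, *KIT*, *GATA1*, and *CSF2RA*, were at 1 CPM or more in every library. Their summed level was between 1225 and 1398 CPM in control and between 1134 and 1430 CPM in knockout pools. Of the markers of other cells, the highest sums were those of 4 B cell genes, at 19.7 and 19.97 CPM in control and between 9.21 and 12.3 CPM in knockout pools, and no other list exceeded 5.05 CPM in any library. In bulk RNA, fewer cells with a transcript and less of it per cell cannot be told apart. *MTSS1* itself was at 204 and 87.9 CPM in control and at 104, 139, and 49.9 CPM in knockout pools. The groups overlapped (edgeR adjusted p = 0.494), so the mRNA level of the targeted gene does not check the labels. Per the supplementary methods, the clones had been selected for loss of the protein by immunoblot. *NDUFB9* overlaps it on the opposite strand.

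For each gene, knockout was compared with control by the quasi-likelihood test in edgeR over all 14391 genes with sufficient counts, and p-values were adjusted over all of them by the Benjamini-Hochberg method. A gene was called if its adjusted p-value was below 0.05 and its log2-fold change above 1 or below -1. All 10 NF-κB genes were tested, and 1 was called, *NFKBIA*, which was higher in the knockout. Of all tested genes, 5.18% were called, 4.17% as higher and 1.01% as lower. The number of called genes, 745, depended on single libraries and was 111 without knockout pool 1, 347 without knockout pool 2, 191 without knockout pool 3, and 1349 without control pool 1. The median log2-fold change was 0.04 over the 10 genes, with 5 above and 5 below 0, and -0.03 over all tested genes. In 2 genes, *NFKBIA* and *NFKBIE*, every knockout pool lay above both control pools, as in 22.2% of all tested genes. In another 2, *NFKB2* and *REL*, every knockout pool lay below both, as in 19.2% of all tested genes. The other 6 genes overlapped between the groups.

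**Figure D1:**
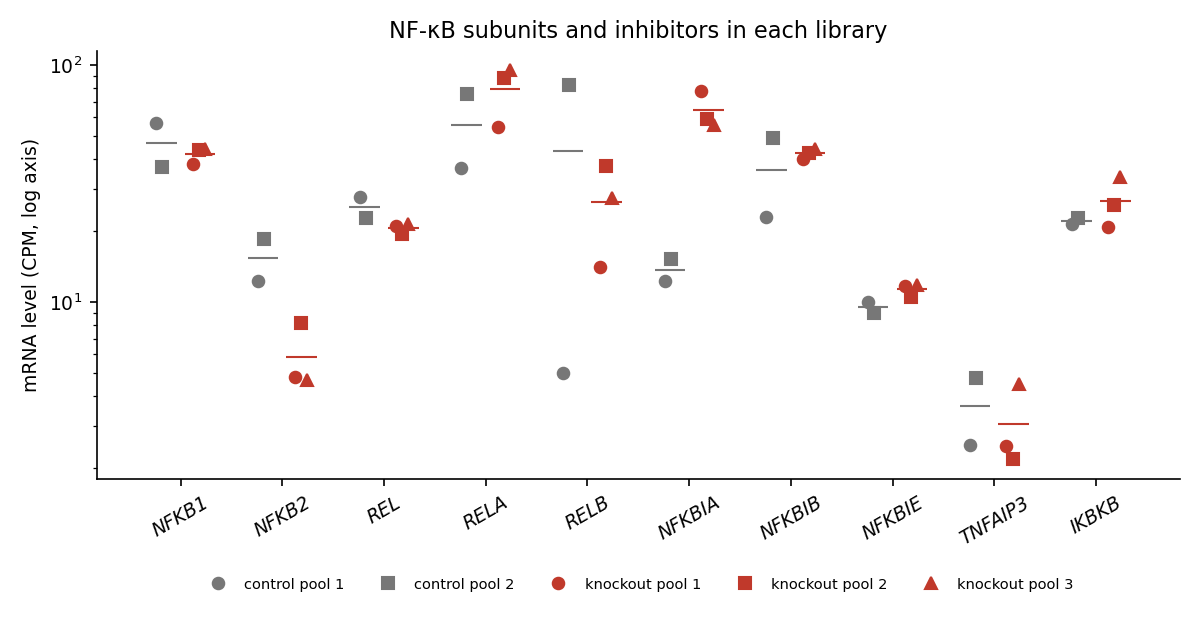
mRNA level of the 10 genes in CPM (vertical log axis) in the 2 control pools (grey) and the 3 knockout pools (red), 1 point per library, with the group mean as a line. *NFKBIA* is at 12.2 and 15.2 CPM in control and at 56.0 CPM or more in knockout pools, whereas the points of *RELB* in the control pools are 16.4-fold apart.

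*NFKBIA* (ENSG00000100906, chromosome 14, 35401079 to 35404749 of GRCh38) encodes IκBα, the inhibitor that is degraded and resynthesized most rapidly when the pathway is activated. Its mRNA was at 12.2 and 15.2 CPM in control pools 1 and 2, and at 77.3, 59.4, and 56.0 CPM in knockout pools 1 to 3. The lowest knockout pool was thus well above the highest control pool, and the pools of either group differed among themselves by no more than 1.38-fold. The means were 13.7 ± 2.12 CPM (SD, n = 2) and 64.2 ± 11.4 CPM (SD, n = 3). The log2-fold change was 2.23 (standard error 0.34, 95% interval 1.47 to 2.98, edgeR adjusted p = 0.0114), which corresponds to a 4.68-fold higher level with an interval of 2.78 to 7.90. Behind these values were 39 and 51 counts in control and between 322 and 596 counts in knockout libraries. After all libraries had been thinned to the total of the smallest one, the log2-fold change was 2.29 (edgeR adjusted p = 0.00837). *NFKBIA* was called in each of the 14 other analyses, with log2-fold changes between 2.06 and 2.42. Its largest adjusted p-value in edgeR was 0.0484, reached without knockout pool 1. No other annotated gene overlaps *NFKBIA*, and no pseudogene is named after it.

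The other IκB genes did not pass the test. *NFKBIB* encodes IκBβ, which is degraded upon stimulation like IκBα but is classically resynthesized more slowly. It was at 22.8 and 49.2 CPM in control and at 40.2, 42.6, and 44.2 CPM in knockout pools, a difference of 0.23 on the log2 scale (95% interval -0.58 to 1.04, edgeR adjusted p = 0.747). All knockout values lay between the 2 control values. *NFKBIB* shares 163 bases with *SIRT2* on the opposite strand at the ends from which both are transcribed, away from the 3′ ends that the kit captures.

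*NFKBIE* encodes IκBε, an inhibitor that binds mainly REL- and RELA-containing dimers. It was at 10.01 and 8.94 CPM in control and at 11.7, 10.5, and 11.8 CPM in knockout pools. Although the groups did not overlap, they were close, with a log2-fold change of 0.26 (95% interval -0.52 to 1.04, edgeR adjusted p = 0.705).

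The composition of the IκB mRNAs differed accordingly. *NFKBIA* took 27.1% (95% Wilson interval 20.5 to 34.9) of the counts of the 3 IκB genes in control pool 1 and 20.7% (16.1 to 26.2) in control pool 2. Its share was 59.8% (56.8 to 62.8), 52.8% (48.9 to 56.7), and 50% (46.1 to 53.9) in knockout pools 1 to 3. Intervals cover counting error only. The sources used here do not mention molecular identifiers, so reads may be copies of 1 molecule. *NFKBIB* had the largest share in both control pools, with 50.7% and 67.1%, and *NFKBIA* in all 3 knockout pools. The summed level of the 3 genes was 45.0 and 73.3 CPM in control and between 112 and 129 CPM in knockout pools. These shares restate the difference in *NFKBIA* and were not tested separately.

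**Figure D2:**
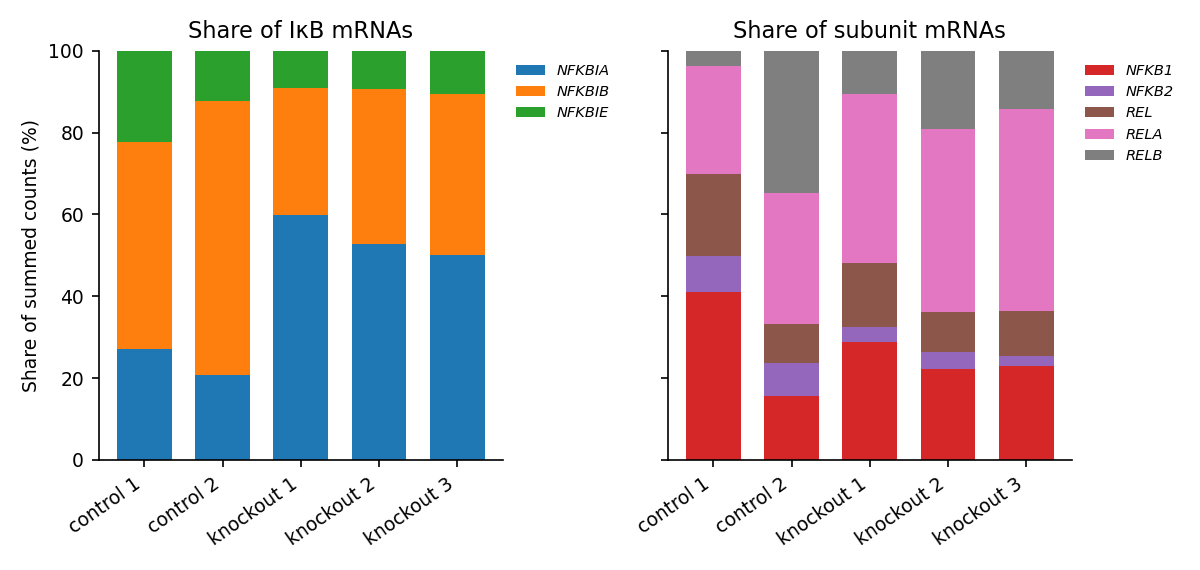
Share of each gene in the summed counts of the 3 IκB genes (left) and of the 5 subunit genes (right), in percent, with 1 stacked bar per library. *NFKBIA* takes 50% or more of the IκB counts in the knockout pools and at most 27.1% in the control pools, and *RELB* takes 3.61% and 34.9% of the subunit counts in control pools 1 and 2.

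*TNFAIP3* encodes A20, which edits ubiquitin chains on signalling proteins upstream of IKK and is, like IκBα, a feedback inhibitor induced by NF-κB. It had the lowest level of the 10 genes, at 2.50 and 4.77 CPM in control and at 2.46, 2.17, and 4.52 CPM in knockout pools. These values rest on 8 to 26 counts per library, and the groups overlapped almost completely. *WAKMAR2* overlaps it on the opposite strand with 3 to 16 counts per library. The log2-fold change was -0.26, with an interval from -1.53 to 1.01 (edgeR adjusted p = 0.827). At this depth, an increase in *TNFAIP3* as large as that of *NFKBIA* lies outside the interval, but a rise of up to 2.02-fold does not.

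*IKBKB* (ENSG00000104365) encodes IKKβ, the kinase that marks IκB proteins for degradation. It was at 21.3 and 22.6 CPM in control and at 20.8, 25.6, and 33.6 CPM in knockout pools. Knockout pool 3 had the highest level and pool 1 the lowest of all libraries, so the groups overlapped. Its log2-fold change was 0.28 (95% interval -0.46 to 1.02, edgeR adjusted p = 0.662).

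**Figure D3:**
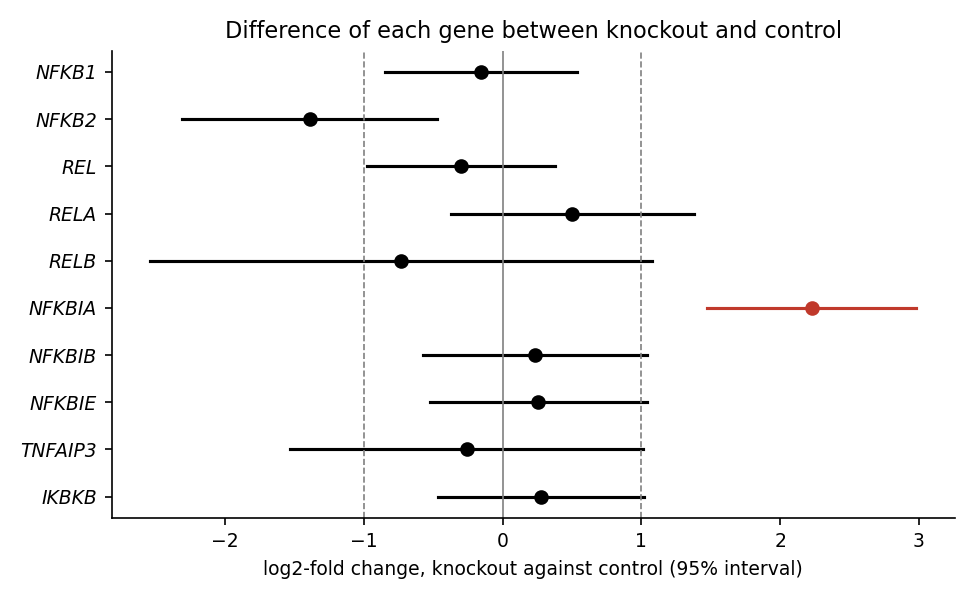
log2-fold change of each gene between knockout and control (horizontal axis, points) with its 95% interval (lines) from the quasi-likelihood fit, and the limits of -1 and 1 dashed. The interval of *NFKBIA* (red, called) runs from 1.47 to 2.98, that of *NFKB2* from -2.31 to -0.47, and those of the other 8 genes include 0.

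Among the subunits, *NFKB2* (ENSG00000077150, chromosome 10, 102394110 to 102402524) showed the largest difference. It encodes p100, which acts as an inhibitor until it is processed to p52 in the noncanonical branch of the pathway. Its level was 12.2 and 18.5 CPM in control and 4.80, 8.12, and 4.70 CPM in knockout pools. Every knockout value was thus below both control values. The log2-fold change was -1.39 (standard error 0.41, 95% interval -2.31 to -0.47), with an unadjusted p-value of 0.00732 and an edgeR adjusted p of 0.0822, so *NFKB2* was not called. It was called without control pool 1, with a log2-fold change of -1.65 (edgeR adjusted p = 0.0474). Over all alternatives its log2-fold change stayed between -1.66 and -1.03. Counts were low in all libraries, between 27 and 62.

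*NFKB1* encodes p105, the precursor of p50. It was at 56.9 and 37.0 CPM in control and at 38.3, 43.7, and 44.4 CPM in knockout pools, all of the latter within the range of the control pools. Its log2-fold change was -0.16 (95% interval -0.85 to 0.53, edgeR adjusted p = 0.805).

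*RELA* encodes p65, the partner of p50 in the classical dimer, and had the highest mean level of the 10 genes in both groups. It was at 36.6 and 75.1 CPM in control and at 54.6, 88.1, and 94.996 CPM in knockout pools. The groups overlapped, since knockout pool 1 lay between the control pools, whereas knockout pools 2 and 3 lay above both. The log2-fold change was 0.50 (95% interval -0.37 to 1.38, edgeR adjusted p = 0.480). Without control pool 1 its log2-fold change was 0.09, and without control pool 2 it was 1.14, so that its size depends on which control pool is used.

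*REL*, which encodes the c-Rel subunit of hematopoietic cells, was at 27.8 and 22.6 CPM in control and at 20.9, 19.3, and 21.2 CPM in knockout pools. The knockout values were all lower than both control values, but by little. The log2-fold change was -0.30 (95% interval -0.98 to 0.38, edgeR adjusted p = 0.597).

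*RELB* (ENSG00000104856, chromosome 19, 45001461 to 45038192) encodes the subunit that pairs with p52 in the noncanonical branch. It was at 5.003 CPM in control pool 1 and at 82.0 CPM in control pool 2, a 16.4-fold difference that rests on 16 and 275 counts. Knockout pools lay between these values, at 14.01, 37.6, and 27.3 CPM. The log2-fold change was -0.73 with an interval from -2.54 to 1.08 (edgeR adjusted p = 0.633), the widest of the 10 genes. Its sign was set by the choice of control pool. Without control pool 1 the log2-fold change was -1.64 (edgeR adjusted p = 0.0532), and without control pool 2 it was 2.41 (edgeR adjusted p = 0.0613). In limma-voom it was 0.21 (adjusted p = 0.922). No direction can be given for *RELB* in these data.

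**Figure D4:**
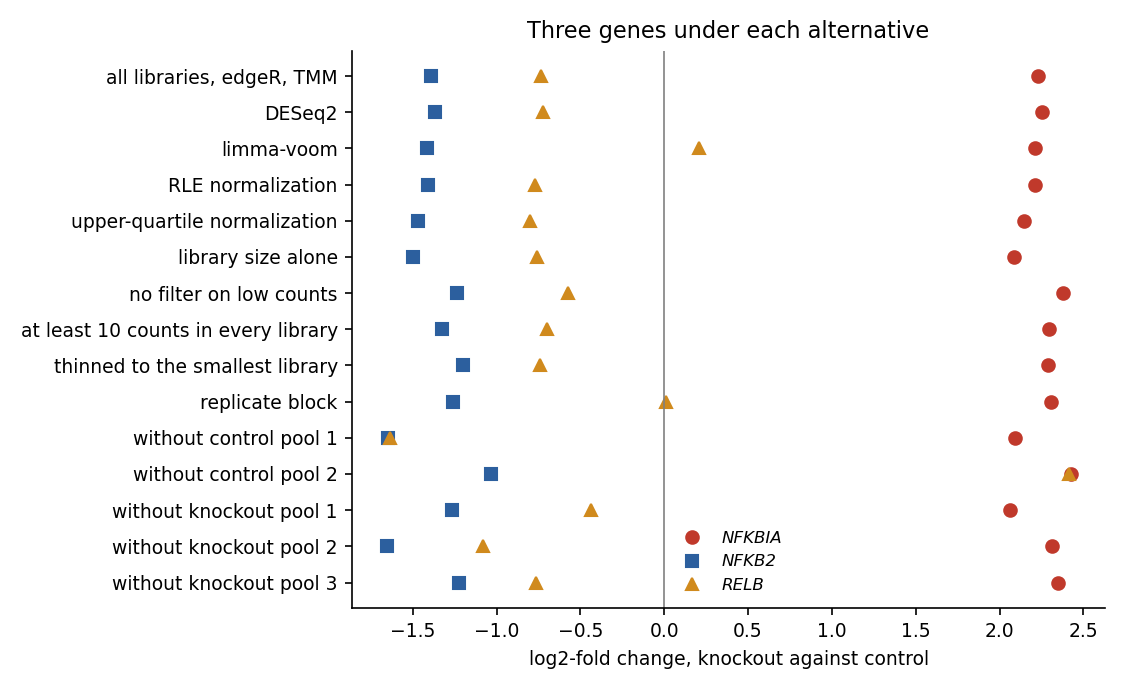
log2-fold change of *NFKBIA* (circles), *NFKB2* (squares), and *RELB* (triangles) between knockout and control (horizontal axis) in the analysis of all libraries and in 14 alternatives (rows). *NFKBIA* stays between 2.06 and 2.42 and *NFKB2* between -1.66 and -1.03, whereas *RELB* ranges from -1.64 to 2.41.

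The composition of the subunit mRNAs restates these values and was not tested separately. Each share also depends on the other genes in the sum, above all on *RELB* in control pool 2. The share of *NFKB2* in the counts of the 5 subunit genes was 8.80% and 7.86% in control and 3.62%, 4.13%, and 2.44% in knockout pools. That of *RELA* was 26.4% and 31.9% in control and 41.2%, 44.8%, and 49.3% in knockout pools, while *RELB* took 3.61% and 34.9% of these counts in control pools 1 and 2. The shares of *RELA* did not overlap between the groups, but its levels did, and it was not called. The summed level of the 5 genes was 139 and 235 CPM in control and 133, 197, and 193 CPM in knockout pools, so that the groups overlapped in the total.

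Ordered by their mean level in control pools, the genes were *RELA* (55.8 CPM), *NFKB1* (46.9), *RELB* (43.5), *NFKBIB* (36.0), *REL* (25.2), *IKBKB* (21.95), *NFKB2* (15.3), *NFKBIA* (13.7), *NFKBIE* (9.47), and *TNFAIP3* (3.63). Neighbours in this order overlapped between pools, or met as *REL* and *IKBKB* did at 76 counts in control pool 2, except that *IKBKB* lay above *NFKB2*, *NFKBIA* above *NFKBIE*, and *NFKBIE* above *TNFAIP3* in both pools. In the knockout, *NFKBIA* moved from the eighth to the second place, behind *RELA* (79.2 CPM), with which it overlapped, and above *NFKBIB* (42.3 CPM), with which it did not. *NFKB2* moved to the ninth place at 5.87 CPM.

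The rest of the pathway was described by 5 lists, which share 5 genes and in which genes were counted as called by the same test. Not all listed genes had enough counts to be tested. Of 22 tested genes of the IKK complex and of the adaptors and kinases that activate it, none was called in edgeR, against 5.18% of all tested genes, 2 had an unadjusted p-value below 0.05, against 23.3% of all, and the median log2-fold change was -0.01. DESeq2 called 1. The genes with the smallest p-values were *MAP3K7*, which encodes the IKK-activating kinase TAK1, and *BCL10*, an adaptor of antigen receptor signalling. *MAP3K7* was at 50.3 and 56.0 CPM in control and at 111, 108, and 105 CPM in knockout pools, a difference of 1.02 on the log2 scale (edgeR adjusted p = 0.0660). It was called in DESeq2 (log2-fold change 1.05, adjusted p = 0.0253) and in edgeR without a filter on low counts (1.17, adjusted p = 0.0464). *BCL10* had a log2-fold change of -0.99 (edgeR adjusted p = 0.137), which was -0.56 without control pool 1.

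Of 22 tested genes of the ubiquitin machinery of the pathway, 1 was called (4.55%, against 5.18% of all tested genes) and the median was 0.04. This was *UBE2D3*, which encodes a ubiquitin-conjugating enzyme that acts with many ligases, including the one that targets IκBα. It was at 125 and 105 CPM in control and at 343, 303, and 403 CPM in knockout pools, a difference of 1.60 on the log2 scale (SE 0.31, edgeR adjusted p = 0.0238). *UBE2D3* has 4 pseudogenes named after it, so the size of its change is uncertain. The call was lost without any 1 of the 3 knockout pools, with adjusted p-values between 0.0548 and 0.0926 in edgeR. *ITCH*, a ligase that works with A20, had a log2-fold change of -0.95 (edgeR adjusted p = 0.0909), and *SPATA2*, an adaptor of the deubiquitinase CYLD, of 1.46 (edgeR adjusted p = 0.210). *SPATA2* had 8 and 2 counts in the control libraries and was at 2.80 without control pool 1 and at 0.79 without control pool 2.

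Of 20 further IκB-related proteins, nuclear cofactors, and brakes, 2 were called (10%, against 5.18% of all tested genes), 1 in each direction, and the median was 0.09. *HDAC3*, a deacetylase that acts on RELA among many other proteins, rose from 32.5 and 50.1 CPM in control to 178, 156, and 192 CPM in knockout pools (log2-fold change 2.08, standard error 0.33, edgeR adjusted p = 0.0131). *NFKBIL1*, which is named for its similarity to IκB proteins but is not a classical member of that family, fell from 87.9 and 90.3 CPM to 15.2, 30.3, and 22.1 CPM (log2-fold change -1.99, standard error 0.34, edgeR adjusted p = 0.0159). The groups did not overlap for either gene. Over all tested genes, every knockout pool lay above both control pools in 22.2% and below both in 19.2%. *NFKBIL1* overlaps *ATP6V1G2* on the opposite strand. Both calls were lost without knockout pool 1 (edgeR adjusted p = 0.0591 and 0.0612) or knockout pool 3 (0.0530 and 0.0690). *HDAC1* (0.96) and *AKIRIN2* (-1.15), a nuclear cofactor, had the next smallest p-values, with edgeR adjusted p of 0.0822 and 0.108.

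Of 24 listed receptors, 14 were tested. Among these genes, which feed the pathway, 1 was called (7.14%, against 5.18% of all tested genes) and the median was -0.22. *TNFRSF12A*, which encodes the TWEAK receptor Fn14, was at 0.625 and 1.49 CPM in control and at 8.04, 5.96, and 5.05 CPM in knockout pools (log2-fold change 2.55, standard error 0.61, edgeR adjusted p = 0.0439). It had only 2 and 5 counts in the control libraries and entered the test only through the knockout libraries. As the only receptor called, it makes up the whole share of 7.14%. Its call was lost in limma-voom (adjusted p = 0.0837) and, in edgeR, without control pool 1 (0.0825) or any 1 of the knockout pools (0.0829 to 0.121). *TNFRSF8* (CD30) had a log2-fold change of 1.64 (edgeR adjusted p = 0.0997) and *CD40* of 1.34 (0.234). Both values depended on the control pools. Without control pool 1, *TNFRSF8* was called at 2.60 (edgeR adjusted p = 0.0324) and *CD40* was at 2.36 (0.0910), and without control pool 2 they were at 1.098 and 0.77. *CD40* was at 0.90 without knockout pool 1. DESeq2 called *TNFRSF8* (adjusted p = 0.0220), as did edgeR without a filter (0.0218).

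Of 64 textbook target genes of NF-κB other than the 10 genes above, 52 were in the table and 35 were tested. *TNF*, *IL6*, *CXCL1*, *IER3*, *SOD2*, and *TRAF1* were among those not in the table, and *CXCL8*, *BIRC3*, and *BCL2A1* among those not tested. In this list 5 genes were called (14.3% of those tested), 4 as higher and 1 as lower, and 14 had an unadjusted p-value below 0.05. Over all tested genes these shares were 5.18% called and 23.3% with such a p-value. The list was chosen with earlier results of these data known, so its shares only describe it. The median log2-fold change was 0.39, with 25 genes above and 10 below 0. Every knockout pool lay above both control pools in 13 of these genes and below both in 4, against 22.2% and 19.2% of all tested genes. The genes called as higher were *IER5* and *IER2*, a pair of related immediate early genes, *JUNB*, a subunit of the AP-1 transcription factor, and *LTB*, which encodes the membrane anchor of lymphotoxin. *IER5* rose from 10.3 and 13.4 CPM to 55.1, 74.0, and 74.8 CPM (log2-fold change 2.51, standard error 0.34, edgeR adjusted p = 0.00896). *IER2* rose from 8.75 and 14.3 CPM to 45.4, 70.0, and 75.2 CPM (2.46, edgeR adjusted p = 0.0131). *LTB* rose from 8.13 and 7.75 CPM to 54.3, 26.2, and 69.8 CPM (2.65, edgeR adjusted p = 0.0182). *JUNB* rose from 10.6 and 4.77 CPM to 35.3, 30.5, and 40.7 CPM (2.21, edgeR adjusted p = 0.0215). It overlaps *HOOK2* on the opposite strand, and whether strand was used in counting is not stated. *IER5*, *IER2*, and *JUNB* are also known to be induced by serum and growth factors. The tested targets that also stand in another of the lists were not called. Their log2-fold changes were 0.64 for *MAP3K8*, 0.26 for *NFKBIZ*, 0.28 for *BCL3*, and -0.65 for *TNIP1*.

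The gene called as lower was *SQSTM1*, which encodes the autophagy receptor and signalling scaffold p62. It fell from 109 and 160 CPM to 42.2, 50.9, and 40.4 CPM (log2-fold change -1.60, edgeR adjusted p = 0.0209), overlaps *MGAT4B* on the opposite strand, and has 1 pseudogene named after it. *SDC4* (1.59) and *BCL2L1* (-1.56), which encodes the survival protein BCL-XL, had the next smallest p-values, with edgeR adjusted p of 0.107 and 0.109. *BCL2L1* was at 74.7 and 299 CPM in control pools 1 and 2 and overlapped between the groups. Its log2-fold change was -2.23 without control pool 1, where it was called (edgeR adjusted p = 0.0124), and -0.21 without control pool 2. DESeq2 called it as well (adjusted p = 0.0301). In edgeR, *LTB*, *JUNB*, and *SQSTM1* were not called without knockout pool 1 (adjusted p = 0.0761, 0.0781, and 0.0801) or knockout pool 3 (0.0530, 0.0655, and 0.102), and *SQSTM1* not without knockout pool 2 either (0.0635). *IER5* and *IER2* were called in all 14 alternatives.

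**Figure D5:**
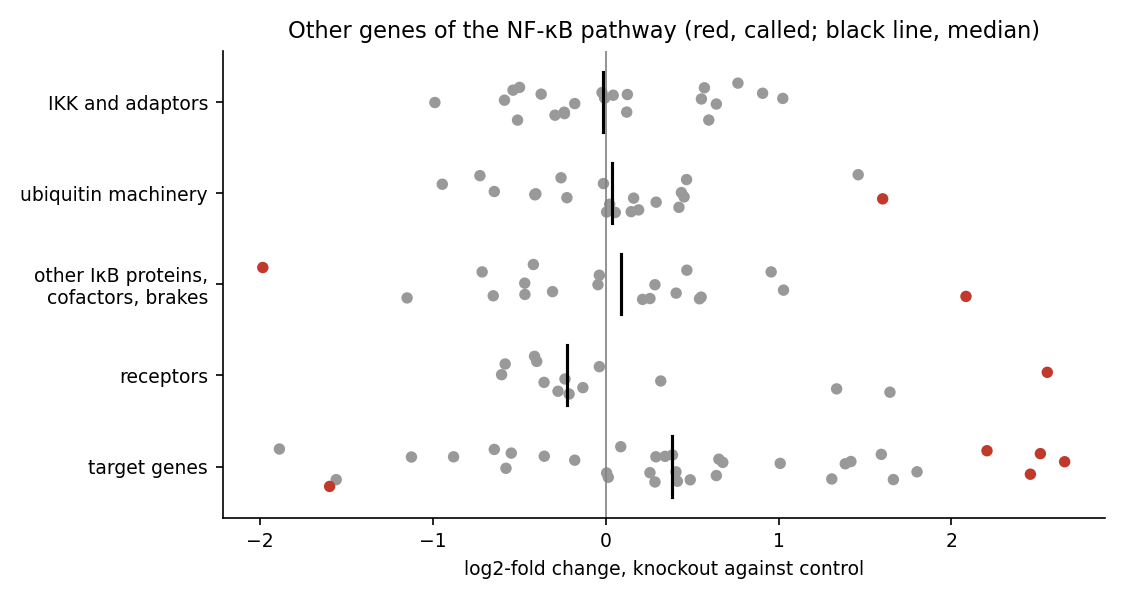
log2-fold change between knockout and control (horizontal axis) of the tested genes in 5 lists of the NF-κB pathway, 1 point per gene, with called genes in red and the median of each list as a black line. The medians lie between -0.22 for receptors and 0.39 for target genes, and 9 points in all are red.

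The 3 tested genes whose pattern over the 5 libraries was closest to that of *NFKBIA* were *CLIC1*, which encodes an intracellular chloride channel protein, *MKS1*, a ciliary gene, and *ZFPL1*, a gene of the Golgi. Likeness was measured as the root mean square difference in log2 CPM after subtracting each gene's mean over the 5 libraries, and was 0.08, 0.10, and 0.11. *CLIC1* was at 5.32 and 6.56 CPM in control and at 39.0, 25.6, and 24.7 CPM in knockout pools, so that, as for *NFKBIA*, knockout pool 1 had the highest level. *ZFPL1* had 1 and 2 counts in the control libraries and entered the test only through the knockout libraries.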

How the data were processed

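RNA-seq was analysed for 5 libraries of TF-1 cells, 2 control and 3 *MTSS1* knockout pools, grouped by their labels. The deposited values are raw counts per Ensembl gene, to which the authors applied no normalization. The authors prepared QuantSeq 3′ FWD libraries, sequenced them as single-end reads, trimmed adapters, aligned to GRCh38 with HISAT2 2.1.0, and removed ambiguous alignments with SAMtools 1.10, which lowers counts of genes with near-identical copies. The counter, annotation, strand setting, and duplicate handling are not given in the sources used here.

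Counts were filtered (filterByExpr, minimum count 10), scaled by TMM, and tested with condition as the only term by the quasi-likelihood test of edgeR 4.0.16 in R 4.3.3. Intervals of log2-fold changes derive from the F statistic. Alternatives used DESeq2 1.42.0, limma 3.58.1, other scalings and filters, thinning to 2849979 counts, a replicate block, and each library left out. In a simulation based on this comparison (200 of 13941 tested genes changed 4-fold), edgeR called 64.5% of the changed and 8 unchanged genes. The simulation gave every gene the same relative spread between pools, so it does not cover genes that vary as *RELB* does. Names and positions are from GENCODE 44, which named 27211 of 27328 genes, and promoters from RefSeq.

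The members and lists were chosen with earlier results of these data known. All 10 members, and from each list the called genes and the 2 with the next smallest p-values, are named. Also named are the tested targets that stand in another list, and some targets that were absent or not tested. Of the lists, 22 of 24, 22 of 26, 20 of 20, 14 of 24, and 35 of 64 genes were tested, in the order of the report, and the others are not analysed here.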

Additional observations from a re-analysis of the deposited data

How the results depend on the processing

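Over 14 alternatives, or 13 for *TNFAIP3*, which does not reach 10 counts in every library, the 10 genes kept call and direction in 132 of 139 values. The log2-fold change of *RELB* was 0.21 in limma-voom. With each library left out in turn, it lay between -1.64 and 2.41 for *RELB*, -0.41 and 0.20 for *NFKB1*, -0.21 and 0.92 for *NFKBIB*, -0.63 and 0.31 for *TNFAIP3*, and -1.04 and 0.16 for *MTSS1*, each turning sign without 1 of the control pools. Between 1 and 2 of the 10 genes were then called, *NFKB2* being the second, and between 111 and 1349 of all genes. The lone control pool is assumed to vary like the knockout pools. DESeq2 called 1286 and edgeR without a filter 1374 of all genes, against 745. In the lists, DESeq2 and the analysis without a filter each called 1 IKK or adaptor gene and 2 receptors, and limma-voom and a minimum of 10 counts in every library called 0 receptors. With libraries left out, calls ranged from 0 to 1 for the ubiquitin machinery, 0 to 4 for IκB-related genes, 0 to 1 for receptors, and 2 to 8 for target genes (2 without knockout pool 1 or 3, 8 without control pool 1). Without any limit on the fold change, 1 of the 10 genes was called, as before. With library totals as the only scaling, the median over all tested genes went from -0.03 to -0.17, and *NFKBIA* was at 2.09.

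The replicate numbers 1 and 2 occur in both groups, but mark different sgRNAs, and no source used here says whether pools of 1 number were handled together. Deviations of same-numbered libraries had a Pearson's r of 0.20 and 0.11 across 14391 genes, which are not independent. Knockout pool 3 has no control pool of its number, so with the replicate block it adds nothing to the difference between the groups. In that fit 1094 genes were called, among them 1 of the 10, *NFKBIA* (log2-fold change 2.31), and 2 receptors, and *RELB* was at 0.012. *CD40* (adjusted p = 0.0221), *BCL2L1* (0.0379), and *AKIRIN2* (0.0467) were called in this edgeR fit, but not in the edgeR fit of all libraries without the block.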
